A study of Mus musculus with 23 samples.

Results

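The 9 genes described here are *Bcl2*, *Bcl2l1*, *Bcl2l2*, *Mcl1*, *Bcl2l11*, *Hrk*, *Bid*, *Bak1* and *Apaf1*, picked by name from the 56941 genes counted in the RNA of *Nedd8*-deficient and control hippocampal neurons. They encode the BCL2 family proteins that hold back or start cell death at mitochondria, and the scaffold on which caspases are then activated. The working name of the set was BCL2 family and caspases outside the p53 targets. It fits only in part, since no caspase is among the 9 genes, and *Bid* and *Apaf1* are themselves known as p53 targets. All 9 genes matched a single row of the counts each and passed the filter on low counts. They had between 53 (*Bcl2l11*) and 3995 (*Hrk*) reads in each of the 21 libraries compared below.

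Both groups came from newborn mice homozygous for the conditional allele Nedd8cKO, a line made by CRISPR with loxP sites around the second and the third *Nedd8* exon. Controls therefore carry the same floxed allele. The Methods name FVB/N zygotes, whereas the reporting summary gives C57BL/6N for the animals, so the background strain is uncertain. Hippocampal cells of 2 hippocampi per dish were infected on the day after plating with lentivirus expressing RFP (the RFP group) or RFP together with the CRE recombinase (the CRE group), from the neuronal Synapsin1 promoter, so that other cells of the dish were not the target. RNA was extracted after 12 days by the labels, while the Methods give 1 day more for the age of the cultures. Both are the same day if the labels count from infection. There were 12 CRE and 11 RFP libraries, named by culture (1 to 3) and library number, and 21 of them entered the comparison (11 CRE, 10 RFP). The study states 3 animals or biological replicates behind these libraries, and neither the labels nor the Methods say in words that the first number is that replicate. Libraries of a culture may thus not be independent. n counts libraries, and p-values measure the spread between libraries, part of which may be technical, and may be too small. With counts summed per culture and group (3 against 3 sums) *Bcl2*, *Bcl2l11* and *Hrk* kept edgeR adjusted p of 2.04e-05, 0.000967 and 2.38e-05, while that of *Mcl1* was 0.0542.

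Their total counts ran from 7430401 to 13345552 in CRE and from 9833872 to 17112815 in RFP libraries. The other 2 libraries, CRE3-3 (1546796 counts) and RFP3-2 (7635735 counts), are not in the count table that the authors give with their differential expression. The Methods name CRE1-3 and CRE3-3 as removed, and figure legends for the RNA data count 11 RFP libraries. Which libraries entered the study's own test is thus uncertain. CRE1-3 and RFP2-4 stood apart from the other libraries of the comparison, with 0.261% and 3.43% of counts on mitochondrial genes against 7.0% to 11.1% in the 20 libraries that did not stand apart. *Nedd8*, the targeted gene, stood at 11.6 ± 3.55 CPM (counts scaled to a common library size; SD, n = 11) with CRE and 62.9 ± 10.5 CPM (SD, n = 10) with RFP, and no CRE library reached the level of an RFP library. Of 10 neuron markers, 7 were lower in CRE libraries and none higher, where 13.8% of all genes tested were lower. The summed level of the 10 markers was 3216 to 6439.7 CPM in CRE against 7067 to 8237 CPM in RFP libraries. In such bulk RNA fewer cells of a type and less RNA per cell cannot be told apart.

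In the mitochondrial pathway of apoptosis, BH3-only proteins such as BIM (*Bcl2l11*), Harakiri (*Hrk*) and BID signal stress to the other members of the family. Survival members (BCL2, BCL-XL from *Bcl2l1*, BCL-W from *Bcl2l2*, and MCL1) bind the BH3-only proteins and the pore-forming proteins BAK and BAX. When they are outnumbered, BAK and BAX open the outer mitochondrial membrane, cytochrome c leaves, and APAF1 assembles with it into the apoptosome that activates caspase-9. Neurons use this pathway during developmental cell death and after loss of trophic factors, where *Bcl2l11* and *Hrk* are known to be switched on. NEDD8 is a ubiquitin-like protein that activates the cullin-RING ubiquitin ligases, and several family members, MCL1 and BIM among them, are known to be degraded through ubiquitin ligases. RNA counts do not measure these proteins.

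The promoters of the 4 genes whose RNA differed between the groups are shown first, because *Bcl2* and *Bcl2l11* moved one way and *Hrk* the other. Each is the 250 bases before the annotated start of the canonical transcript, read from GRCm39 in the direction of the gene. Capitals mark matches on either strand to the GC box GGGCGG or to the FOXO site GTAAACA, and no match shown overlaps another. *Bcl2* starts on the minus strand of chromosome 1 (chr1:106642061-106642310), *Mcl1* on the plus strand of chromosome 3 (chr3:95565776-95566025), *Bcl2l11* on the plus strand of chromosome 2 (chr2:127967708-127967957) and *Hrk* on the plus strand of chromosome 5 (chr5:118307528-118307777).
Bcl2: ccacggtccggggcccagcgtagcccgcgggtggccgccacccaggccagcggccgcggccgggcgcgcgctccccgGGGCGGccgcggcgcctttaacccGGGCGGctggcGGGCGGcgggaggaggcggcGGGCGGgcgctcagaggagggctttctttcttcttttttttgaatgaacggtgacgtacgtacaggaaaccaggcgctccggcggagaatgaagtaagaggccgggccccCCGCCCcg
Mcl1: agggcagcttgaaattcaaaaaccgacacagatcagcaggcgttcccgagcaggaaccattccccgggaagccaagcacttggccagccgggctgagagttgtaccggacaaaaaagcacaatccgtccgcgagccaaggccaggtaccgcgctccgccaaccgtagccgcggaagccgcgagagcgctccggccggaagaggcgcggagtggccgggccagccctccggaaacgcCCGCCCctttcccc
Bcl2l11: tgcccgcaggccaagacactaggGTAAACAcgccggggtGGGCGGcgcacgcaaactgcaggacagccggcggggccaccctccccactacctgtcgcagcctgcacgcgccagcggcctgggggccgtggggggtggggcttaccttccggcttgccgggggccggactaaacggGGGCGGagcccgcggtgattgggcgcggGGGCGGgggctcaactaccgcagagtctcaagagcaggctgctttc
Hrk: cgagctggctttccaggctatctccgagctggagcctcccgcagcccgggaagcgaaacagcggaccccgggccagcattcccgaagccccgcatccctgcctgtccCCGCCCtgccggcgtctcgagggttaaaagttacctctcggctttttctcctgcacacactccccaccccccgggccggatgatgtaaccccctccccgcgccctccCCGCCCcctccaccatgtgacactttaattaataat

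The same window was searched before each of the 9 genes, although all 250 bases before *Bid* and 156 before *Bcl2l1* lie in exons of other transcripts of these genes. The window of *Hrk* lies inside the annotated gene, which begins at base 118302713, but in none of its exons. The GC box was found in 8 of the 9 windows, in all but that of *Bcl2l2*, and in 36.3% of the windows of 21770 protein-coding genes. It occurred 5 times before *Bcl2*, 3 times before *Bcl2l11*, 2 times before *Hrk* and 1 time before *Mcl1*. All 9 windows were richer in G and C (56.4% to 74.0%) than the median window (53.2%). The FOXO site stood 227 to 221 bases before the start of *Bcl2l11* and 69 to 63 bases before that of *Bak1*, and 2.72% of all windows held it. Letters of the AP-1 site (TGANTCA), the cAMP response element (TGACGTCA), the antioxidant response element (TGACNNNGC) and the E-box (CACGTG) were in none of the 9 windows, and in 1.69% to 9.69% of all windows. These matches describe letters in a short window, and *Bcl2*, whose transcripts rose, and *Hrk*, whose transcripts fell, both held GC boxes.

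Of the 9 genes, 4 differed between CRE and RFP libraries with adjusted p below 0.05 by the quasi-likelihood test of edgeR, where the method of Benjamini and Hochberg covered the 14488 genes tested. *Bcl2*, *Bcl2l11* and *Mcl1* were higher and *Hrk* was lower in CRE libraries. Among all genes tested 30.2% differed, 16.4% being higher and 13.8% lower, and the count of 4 among 9 genes is near this background and no result about the set as such. Ordered by p over all genes, *Bcl2* had rank 124, *Hrk* rank 462 and *Bcl2l11* rank 840. *Bcl2* was the single member whose libraries did not overlap between the groups, as was the case for 4.69% of all genes. The median log2 fold change was 0.10 over the 9 genes and 0.02 over all genes tested.

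**Figure D1:**
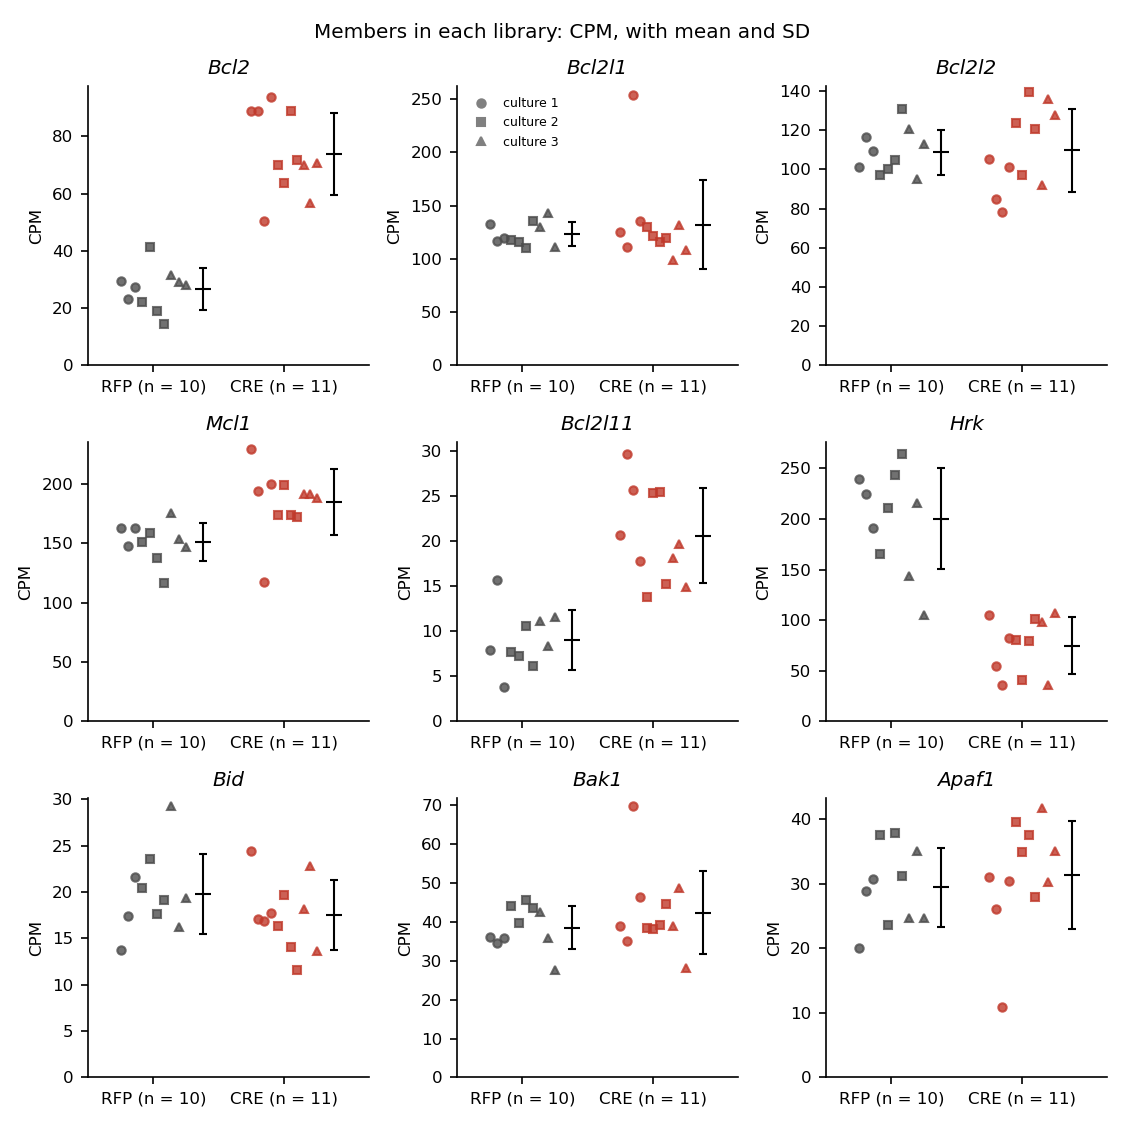
CPM of each of the 9 genes in each of the 21 libraries (vertical axes start at 0), RFP libraries in grey and CRE libraries in red, with a symbol per culture and the mean and SD beside each group. *Bcl2* and *Bcl2l11* lay higher and *Hrk* lower in CRE libraries, and the CRE library at 254 CPM of *Bcl2l1* and 69.8 CPM of *Bak1* is CRE1-3.

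Among the survival members, *Bcl2* (ENSMUSG00000057329, chr1:106465908-106642060, minus strand) rose most. Its level ran from 50.6 to 93.7 CPM in the 11 CRE libraries, with a median of 70.7, and from 14.6 to 41.3 CPM in the 10 RFP libraries, with a median of 27.8. The lowest CRE library, CRE1-3, was above the highest RFP library, RFP2-2. The CRE mean of 74.0 ± 14.3 CPM (SD, n = 11) and the RFP mean of 26.6 ± 7.37 CPM (SD, n = 10) gave a 2.78-fold difference (95% interval 2.23 to 3.47) or 1.48 on the log2 scale (SE 0.15, edgeR adjusted p = 6.68e-08). Within cultures 1, 2 and 3 the log2 fold change was 1.59, 1.60 and 1.15, with standard errors of 0.28, 0.26 and 0.29. In the shallow library CRE3-3, outside the comparison, *Bcl2* had 49 reads or 33.4 CPM when all 23 libraries were scaled together, which is within the RFP range.

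*Mcl1* (ENSMUSG00000038612, chr3:95566026-95570487, plus strand) encodes a survival protein of very short half-life, on which young neurons depend. It stood at 117 to 229 CPM in CRE libraries (median 191) and at 117 to 175 CPM in RFP libraries (median 152). The groups overlapped, with 7 of 11 CRE libraries above every RFP library, and the low end of each range was CRE1-3 and RFP2-4, the libraries that stood apart. The mean was 184 ± 27.6 CPM (SD, n = 11) against 151 ± 16.0 CPM (SD, n = 10), and the log2 fold change 0.29 (SE 0.10, edgeR adjusted p = 0.0324). This call was near the threshold. It was lost when any CRE library other than CRE1-3 was left out, or RFP1-2, RFP2-3 or RFP3-4, with log2 fold changes of 0.21 to 0.28 and adjusted p of 0.0506 to 0.108 in these 13 fits. Without CRE1-3 the log2 fold change was 0.34 (edgeR adjusted p = 0.000672). Over all alternatives the adjusted p of *Mcl1* lay between 0.000251 and 0.282, with a positive log2 fold change throughout.

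*Bcl2l1* (ENSMUSG00000007659, chr2:152622582-152673655, minus strand), the source of BCL-XL and the main survival member of mature neurons, did not pass the test. It stood at 99.4 to 254 CPM in CRE libraries (median 121) and at 110 to 143 CPM in RFP libraries (median 119), and the log2 fold change was 0.10 (95% interval of the fold 0.89 to 1.29, edgeR adjusted p = 0.624). CRE1-3 held the value of 254 CPM, while the other CRE libraries ended at 136 CPM. Without CRE1-3 the log2 fold change was -0.04. *Bcl2l2* (ENSMUSG00000089682, chr14:55120778-55126551, plus strand), which encodes BCL-W, stood at 78.1 to 139 CPM in CRE and 94.9 to 131 CPM in RFP libraries. The log2 fold change was 0.01, with a 95% interval of the fold from 0.86 to 1.18 (adjusted p = 0.953). *Bcl2l2* lies on chromosome 14, as *Nedd8* does.

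Among the BH3-only genes *Bcl2l11* and *Hrk* moved in opposite directions. *Bcl2l11* (ENSMUSG00000027381, chr2:127967958-128004476, plus strand), which encodes BIM, a strong activator that binds every survival member, ran from 13.8 to 29.7 CPM in CRE libraries (median 19.6) and from 3.86 to 15.8 CPM in RFP libraries (median 8.17). The groups overlapped through RFP1-2 alone, which was above 3 CRE libraries, and 8 of 11 CRE libraries were above every RFP library. Means of 20.6 ± 5.28 CPM (SD, n = 11) and 9.06 ± 3.33 CPM (SD, n = 10) gave a 2.27-fold difference (95% interval 1.70 to 3.04), or 1.18 on the log2 scale (SE 0.20, edgeR adjusted p = 7.72e-05). Within cultures 1, 2 and 3 the log2 fold change was 1.35, 1.32 and 0.76, with standard errors of 0.37, 0.34 and 0.39. *Bcl2l11* rested on the fewest reads of the 9 genes, 53 to 405 per library of the comparison. In CRE3-3 and RFP3-2 it was at 28.0 and 3.59 CPM, each near the end of its group's range.

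*Hrk* (ENSMUSG00000046607, chr5:118302713-118327543, plus strand) encodes Harakiri, a BH3-only protein known mostly from neurons. It ran from 35.8 to 107 CPM in CRE libraries (median 80.4) and from 105 to 265 CPM in RFP libraries (median 213). All CRE libraries except CRE1-1 and CRE3-4 were below the lowest RFP library, RFP3-4. The means were 74.6 ± 28.1 CPM (SD, n = 11) and 200.4 ± 49.5 CPM (SD, n = 10), so that *Hrk* was at 0.37 of the RFP level (95% interval 0.28 to 0.50), a log2 fold change of -1.42 (SE 0.20, edgeR adjusted p = 7.29e-06). Within cultures 1, 2 and 3 it was -1.65, -1.55 and -0.94, with standard errors of 0.36, 0.35 and 0.39. RFP3-2, outside the comparison, was at 80.7 CPM of *Hrk* and thus within the CRE range, and the fit to all 23 libraries gave -1.33 on the log2 scale (edgeR adjusted p = 2.41e-05).

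*Bid* (ENSMUSG00000004446, chr6:120862525-120894171, minus strand), whose protein links death receptors to mitochondria after cleavage by caspase-8, did not pass the test. It stood at 11.6 to 24.4 CPM in CRE and at 13.7 to 29.2 CPM in RFP libraries, with a log2 fold change of -0.18 (95% interval of the fold 0.71 to 1.09, adjusted p = 0.405). Of the exon length of *Bid*, 31.2% (3059 bases) overlaps *Bcl2l13* on the opposite strand. *Bcl2l13* had 698 to 1567 reads per library of the comparison, against 122 to 322 for *Bid*, and a log2 fold change of -0.06 (adjusted p = 0.678). The strand setting of the counting is not given in the sources used here, so the counts of *Bid* are uncertain.

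The pore-forming *Bak1* (ENSMUSG00000057789, chr17:27238784-27247983, minus strand) and the apoptosome scaffold *Apaf1* (ENSMUSG00000019979, chr10:90825173-90918686, minus strand) did not pass the test either. *Bak1* stood at 28.3 to 69.8 CPM in CRE and 27.6 to 45.6 CPM in RFP libraries, with a log2 fold change of 0.14 (95% interval of the fold 0.91 to 1.33, adjusted p = 0.480). *Apaf1* stood at 10.9 to 41.7 CPM in CRE and 20.1 to 37.8 CPM in RFP libraries, with a log2 fold change of 0.09 (95% interval of the fold 0.84 to 1.36, adjusted p = 0.727). CRE1-3 held both the highest *Bak1* level and the lowest *Apaf1* level. For these genes and for *Bcl2l1*, *Bcl2l2* and *Bid* the intervals exclude a 2-fold change in either direction, which does not show that the levels were equal.

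**Figure D2:**
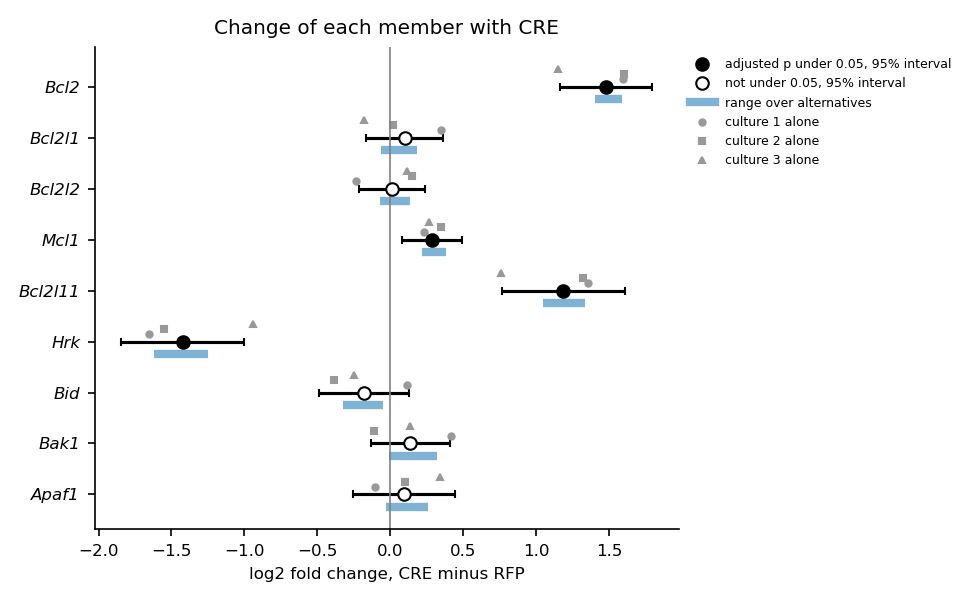
Log2 fold change of each of the 9 genes, CRE minus RFP, with its 95% interval (filled where the adjusted p was under 0.05), the values within each culture (grey symbols) and the range over 38 alternative analyses (blue bars). The intervals of *Bcl2*, *Bcl2l11*, *Mcl1* and *Hrk* lie to 1 side of 0, and in each of the 3 cultures these 4 genes kept their direction.

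Of the 9 genes, 4 changed in the same direction in each of the 3 cultures, beside 55.8% of all genes tested. They were the 4 genes that differed, while the others did not keep their direction, so this is no result about the set. The fold changes of *Bcl2*, *Bcl2l11* and *Hrk* were nearest to 0 in culture 3. A test of whether the CRE effect differed between cultures (the interaction of group and culture in edgeR) called no member, with adjusted p from 0.977 for *Bcl2* upward. It called 1 gene of 14488 (0.0069%), while 595 genes had an unadjusted p under 0.05, none of the 9 among them. When CRE1-3 and CRE3-3 were left out and RFP3-2 kept, the same test called 45 genes, again with no member (smallest adjusted p of a member 0.651).

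Levels of different genes are compared here per length, as CPM per kilobase of exons. In RFP libraries *Mcl1* was highest at 43.3 ± 4.58 CPM per kilobase (SD, n = 10). It was followed by *Hrk* (35.1 ± 8.66), *Bcl2l1* (24.0 ± 2.18), *Bcl2l2* (20.1 ± 2.12) and *Bak1* (16.0 ± 2.32). Far lower were *Bcl2* (2.89 ± 0.80), *Apaf1* (2.78 ± 0.58), *Bid* (2.02 ± 0.44) and *Bcl2l11* (0.90 ± 0.33). The libraries of every pair of neighbours in this order overlapped except *Bak1* and *Bcl2*. In the RFP cultures as a whole *Bcl2* was thus at a low level beside the other survival members. *Hrk* was at a high level beside *Bcl2l11* and *Bid*, the other BH3-only genes of the set.

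In CRE libraries the order began with *Mcl1* (52.8 ± 7.89, SD, n = 11), *Bcl2l1* (25.7 ± 8.17), *Bcl2l2* (20.3 ± 3.88) and *Bak1* (17.6 ± 4.43 CPM per kilobase). *Hrk* took rank 5, at 13.1 ± 4.92, and *Bcl2* rank 6, at 8.03 ± 1.56 CPM per kilobase. *Apaf1* (2.96 ± 0.79), *Bcl2l11* (2.04 ± 0.52) and *Bid* (1.78 ± 0.39) were lowest. All neighbours in this order overlapped except *Bcl2* and *Apaf1*. *Mcl1* and *Bcl2l1* overlapped only through CRE1-3, a library that stood apart. It held the lowest *Mcl1* level (33.5) and the highest *Bcl2l1* level (49.5 CPM per kilobase). The order at the low end depends on the length used, since with the longest transcript of each gene *Bcl2* came after *Apaf1* and *Bid* in RFP libraries.

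*Bcl2* made up 7.51% ± 1.35 (SD, n = 11) of the summed level per kilobase of the 4 survival members in CRE libraries, against 3.18% ± 0.80 (SD, n = 10) in RFP libraries. *Mcl1* made up 49.4% ± 6.47 and 47.9% ± 3.28. The sum itself was 107 ± 5.78 CPM per kilobase in CRE and 90.4 ± 5.33 in RFP libraries, with an overlap of the groups (98.8 to 119 against 82.5 to 101). The ratio of *Hrk* to *Bcl2l11* per kilobase was 2.47 to 12.6 in CRE and 16.1 to 87.8 in RFP libraries, so the groups did not overlap. With the longest transcript as the length it was 1.32 to 6.74 and 8.59 to 46.9. These sums and ratios describe the values above and were not tested.

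**Figure D3:**
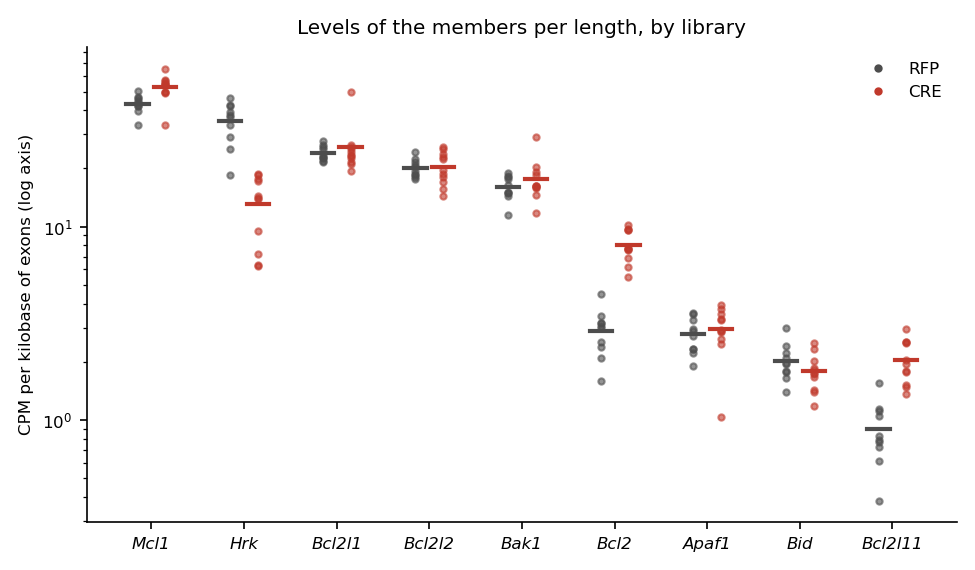
Level of each of the 9 genes per kilobase of exons in each library, on a log axis, in the order of the RFP means (bars are means; 10 RFP libraries in grey, 11 CRE libraries in red). *Bcl2* lies apart from the other survival members, at 2.89 CPM per kilobase in RFP and 8.03 in CRE libraries, and *Hrk* drops from rank 2 to rank 5.

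The 4 CRE libraries lowest in *Hrk* were CRE1-3, CRE3-2, CRE2-2 and CRE1-2, at 35.8, 36.2, 41.0 and 54.3 CPM. The same 4 libraries were the lowest in the summed neuron markers, at 3216, 3937, 4128 and 4443 CPM. Over the 19 libraries without CRE1-3 and RFP2-4, with each group's mean removed, *Hrk* and the summed neuron markers had a Pearson r of 0.77, against -0.50 to 0.31 for the other 8 genes. Of the 10003 genes compared in this way, those most like *Hrk* were *Map2* (r = 0.94), a dendritic microtubule protein that is 1 of the 10 markers, *Tef* (0.93) and *Timp2* (0.92). All 3 were also lower in CRE libraries, by 0.67, 0.45 and 0.57 on the log2 scale (edgeR adjusted p = 0.00560, 0.00766 and 0.0107). These correlations share library depth and composition and are given as a description.

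Divided by the neuron markers, *Hrk* was at 14.7 ± 4.04 CPM per 1000 marker CPM (SD, n = 11) in CRE and at 25.7 ± 6.52 (SD, n = 10) in RFP libraries. This ratio, chosen after seeing the data, was 0.57-fold in CRE (log2 difference -0.82, two-sided permutation test with 100000 resamples, p = 0.00036), compared with 0.36-fold for the CPM of *Hrk* by the same measure, the difference of mean log2 values. The groups overlapped, with 6 of 11 CRE libraries below every RFP library, and 7 of the 10 markers fell themselves. Without CRE1-3 and RFP2-4 the log2 difference of the ratio was -0.72 (permutation p = 0.001, n = 10 and 9). Both tests permute libraries as if they were independent. Within cultures 1, 2 and 3 the log2 difference was -0.95, -1.05 and -0.38, and an exact two-sided permutation test over the 3 culture means of each group gave p = 0.10, the smallest that it can give.

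**Figure D4:**
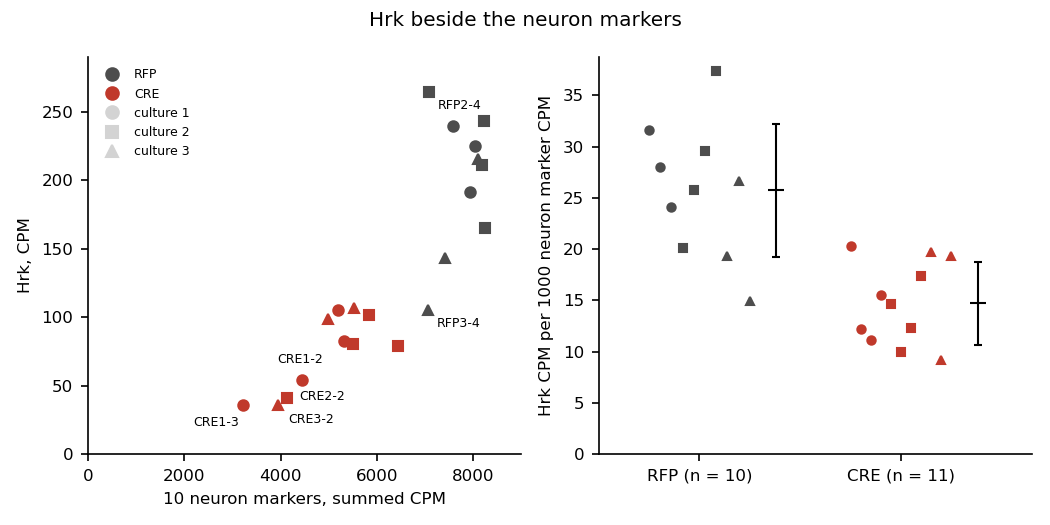
Left, CPM of *Hrk* against the summed CPM of 10 neuron markers in each library (RFP grey, CRE red, a symbol per culture, both axes from 0); right, *Hrk* per 1000 CPM of these markers, with mean and SD. The CRE libraries numbered 2 and CRE1-3 are lowest on both axes, and the ratio was 14.7 in CRE and 25.7 in RFP libraries on average.

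For *Bcl2* the most similar genes over the same 19 libraries were *Tmt1a* (r = 0.84), *Gpx1* (r = 0.82), a glutathione peroxidase, and *Eif4ebp2* (r = 0.77), a translation repressor of neurons. All 3 were higher in CRE libraries, by 0.96, 1.61 and 0.45 on the log2 scale (edgeR adjusted p = 0.000103, 1.05e-05 and 0.000147). For *Bcl2l11* they were *Ddx25* (0.81), *Ric8b* (0.80) and *Cwf19l2* (0.75), of which *Ddx25* was lower in CRE libraries (log2 fold change -0.81, adjusted p = 0.00304) and the others did not pass the test. Among the 9 genes themselves the within-group r ran from -0.52 (*Bcl2* and *Apaf1*) to 0.66 (*Mcl1* and *Bid*), and it was -0.06 for *Bcl2* and *Bcl2l11*, which rose in the same libraries.

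Markers of other cell types differed between the groups as well, where 16.4% of all genes tested were higher and 13.8% lower. All 10 markers of dividing cells were lower in CRE libraries (summed level 8.43 to 212 CPM against 194 to 350 CPM), as were 6 of 9 tested markers of the oligodendrocyte lineage (457 to 2009 against 694 to 2031 CPM). The high CRE value of the oligodendrocyte lineage was CRE1-3 alone, with the next at 1082 CPM, and the low RFP value RFP3-1 alone, with the next at 1298 CPM. The lowest level of dividing cell markers was also that of CRE1-3, with the next at 31.9 CPM. Of 10 astrocyte markers 4 were lower and 2 higher (1697 to 5359 against 3797 to 8220.1 CPM), and of 7 tested endothelial and mesenchymal markers 1 was lower and 1 higher (15.5 to 241 against 16.3 to 123 CPM). Single libraries set several of these limits, since without CRE3-2 the astrocyte sum began at 3760 CPM in CRE, without CRE2-3 and CRE3-1 the endothelial and mesenchymal sum ran from 28.9 to 117 CPM, and without RFP2-4 it began at 43.1 CPM in RFP libraries. Of 10 microglial markers only 2 passed the filter on low counts, and their sum was at most 4.74 CPM in any library. *Aif1*, *C1qa*, *Cx3cr1* and *P2ry12*, which define microglia, did not pass this filter. Of the 2 tested, *Tmem119* was higher in CRE libraries, at 1.84 ± 1.06 against 0.20 ± 0.29 CPM (edgeR adjusted p = 0.000517). *Csf1r* did not pass the test (edgeR adjusted p = 0.223). The part of these cell types in the changes of the 9 genes was not tested.

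Of 11 tested BCL2 family genes outside the 9, 3 were higher in CRE libraries and none was lower. Their share is near the 30.2% called in either direction among all genes, where 16.4% were higher and 13.8% lower. The other 8 did not pass the test and had log2 fold changes of either sign, from -0.33 to 0.84. The higher genes were *Bbc3*, the source of the BH3-only protein PUMA (43.7 ± 34.1 against 15.4 ± 3.49 CPM, edgeR adjusted p = 7.72e-05), the pore-forming *Bax* (41.7 ± 12.9 against 22.8 ± 5.30 CPM, log2 fold change 0.87, adjusted p = 0.000142) and *Bnip2* (0.52, adjusted p = 0.0116). The highest CRE values of *Bbc3* (145 CPM) and *Bax* (78.5 CPM) were those of CRE1-3, a library that stood apart, and they raise these CRE means. *Bax* and *Bbc3* are also counted among the p53 targets. Of 17 p53 targets 13 were higher and none lower, where 16.4% of all genes were higher. Those of smallest p were *Cdkn1a* (log2 fold change 1.52), which arrests the cell cycle, the death receptor gene *Tnfrsf10b* (2.27) and *Gtse1* (1.82), while the log2 fold change furthest from 0 was that of *Fas* (3.27, edgeR adjusted p = 0.000386), at 0.58 ± 0.59 CPM in RFP and 5.59 ± 3.90 CPM in CRE libraries. Among the 9 genes *Bid* and *Apaf1*, which p53 is known to activate, did not pass the test.

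Of 7 tested caspase genes, not all of which act downstream of mitochondria, 3 were higher in CRE libraries and none lower, beside 16.4% higher among all genes. Among them *Casp12* (1.24 ± 2.26 to 7.28 ± 4.10 CPM, edgeR adjusted p = 0.00730) and the inflammatory *Casp1* (0.96 ± 0.89 to 3.16 ± 1.51 CPM, edgeR adjusted p = 0.00879) rose from low levels. *Casp9*, whose protein APAF1 activates, was at a log2 fold change of 0.02 (adjusted p = 0.944). Of 12 genes of apoptosome partners and mitochondrial death proteins 3 were higher and none lower, beside the same 16.4% higher among all genes. These 3 were *Ppif* (0.60), *Aifm2* (1.53) and *Slc25a5* (0.30). None of the 3 tested genes of the inhibitor of apoptosis list passed the test, and their smallest adjusted p was 0.191. *Birc5*, a further gene of that family, was counted only among the markers of dividing cells. It was lower in CRE libraries (3.92 ± 2.81 against 9.54 ± 4.43 CPM, log2 fold change -1.28, edgeR adjusted p = 0.00513).

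In the death receptor pathway, which reaches mitochondria through BID, 6 of 9 tested genes were higher in CRE libraries and none lower, beside 16.4% higher among all genes. *Fas* and *Tnfrsf10b*, counted here, are also among the p53 targets. *Tnfrsf1a*, the TNF receptor, rose from 30.1 ± 6.79 to 134 ± 66.8 CPM (log2 fold change 2.16), and *Ripk1*, a kinase of that receptor's complex, from 8.35 ± 2.41 to 17.9 ± 4.41 CPM (1.10, edgeR adjusted p = 5.67e-05). The highest CRE value of *Tnfrsf1a*, 309 CPM, was that of CRE1-3. Of 9 transcription factors known to act on genes of the set, 4 were higher, *Trp53* (0.96), *Ddit3* (1.25), *Foxo1* (0.65) and *Foxo3* (0.39), and *Mef2d* was lower (-0.34). Among all genes 16.4% were higher and 13.8% lower. *Jun*, which acts on *Bcl2l11* and *Hrk* in neurons deprived of trophic factors, was at 0.16 (adjusted p = 0.572). Of 11 genes for proteins that control the stability or activity of family proteins, 3 were lower and none higher. Their share is near the 30.2% called in either direction among all genes, where 13.8% were lower and 16.4% higher. The 3 lower genes were *Fbxw7* (-0.59), *Huwe1* (-0.35) and *Rbx1* (-0.53), each known as part of a ubiquitin ligase.

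The median log2 fold change was 0.26 for the other BCL2 family genes, 0.43 for the caspases and 0.24 for the mitochondrial death proteins. For the list of inhibitors of apoptosis, which does not hold *Birc5*, it was -0.21. It was 0.66 for the death receptor pathway, 0.22 for the transcription factors, -0.26 for the regulators of protein stability and 1.08 for the p53 targets, beside 0.02 over all genes tested.

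**Figure D5:**
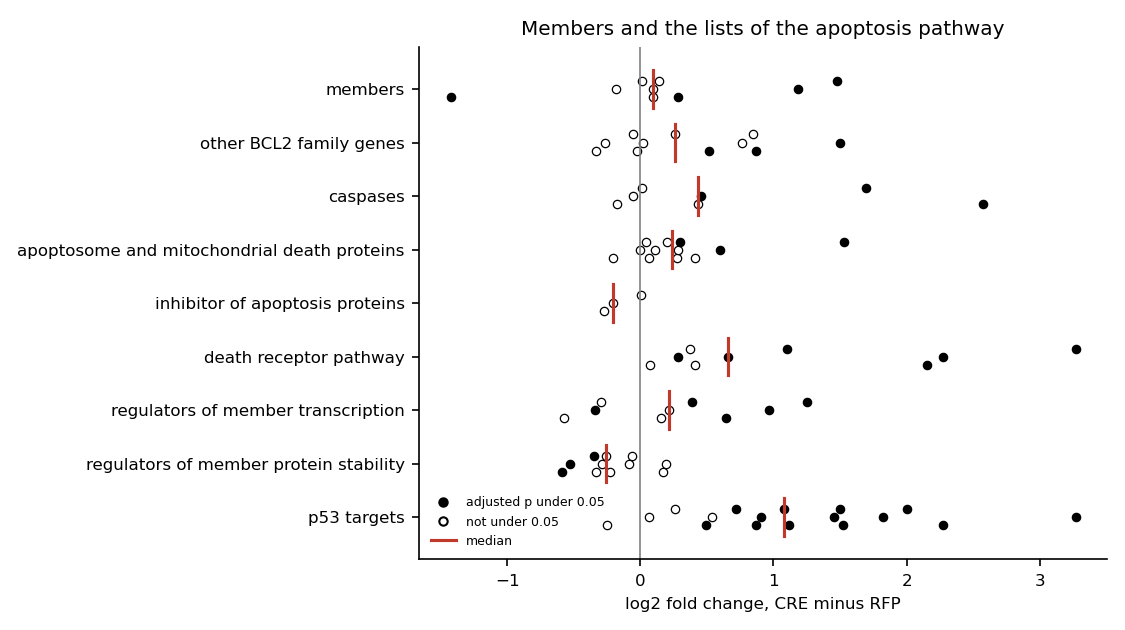
Log2 fold change, CRE minus RFP, of the 9 genes (top row) and of the tested genes of 8 lists around them, filled where the adjusted p was under 0.05, with the median of each row as a red line. *Hrk*, at -1.42, is the lowest point of all rows, and the medians run from -0.26 for the regulators of protein stability to 1.08 for the p53 targets.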

How the data were processed

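RNA libraries of CRE and RFP infected neurons were made with Illumina Stranded mRNA Prep and sequenced on a NovaSeq6000. The submitters' processing notes name bcl2fastq 2.20.0.422, STAR 2.7.8a, featureCounts 1.5.0-p1 and GRCm39. The authors deposited raw counts per gene for each of the 23 libraries, with no normalization. How reads on overlapping genes, either strand or several places were counted is not given in the sources used here. GENCODE M39 of GRCm39, a later release than the authors' annotation, named 56323 of 56941 genes, with 99.951% of counts.

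The 21 libraries of the authors' own count table were compared with edgeR 4.0.16 in R 4.3.3 (filterByExpr, TMM factors, robust quasi-likelihood fit). Standard errors and intervals came from the same fit, CPM from TMM-scaled counts, and alternatives from limma 3.58.1 and DESeq2 1.42.0. Genes were called at an adjusted p under 0.05. The fit was tested on simulated data. No pair of libraries of a group was as alike as sampling noise allows. Python 3.11.15 and matplotlib 3.10.9 drew the figures.

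The 9 genes, the 8 pathway lists and the 6 marker lists (neurons, astrocytes, oligodendrocyte lineage, microglia, endothelial and mesenchymal cells, dividing cells) were chosen with earlier results of these data known. The text names the 9 genes, up to 3 genes of smallest p in each pathway list, the 3 genes most correlated with each of the 3 members of smallest p (mean of at least 10 CPM), and *Nedd8*. *Birc5*, *Casp9*, *Fas*, *Foxo3*, *Mef2d*, *Jun* and the named microglial markers fall outside that rule and were chosen after their values were seen. So were *Bcl2l13* (for its overlap) and the ratio of *Hrk* to neuron markers. Values of 1 list gene named by this rule are left out here.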

Additional observations from a re-analysis of the deposited data

How the results depend on the processing

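*Bcl2*, *Bcl2l11* and *Hrk* kept their direction and their call in all 38 alternatives, with log2 fold changes of 1.40 to 1.58, 1.04 to 1.33 and -1.62 to -1.25. *Mcl1* kept its direction and lost its call in 19 of 38, which left 3 or 4 of the 9 genes called in every alternative. Besides 13 of the 21 fits that leave out a library, *Mcl1* was lost without culture 2 or culture 3, without the low count filter, with counts summed per culture, with culture and library number as a block, and without the 3 CRE libraries numbered 2 (chosen after seeing the data). Of 14488 genes tested 4370 were called, 4031 to 5507 with a library left out, 2114 without culture 2 and 6920 with no low count filter, where 32701 genes were tested. With library totals alone as the scale 65.8% of called genes were higher, against 54.3%. *Bcl2l1*, *Bcl2l2*, *Bak1* and *Apaf1*, which were not called in any alternative, changed sign in some. *Bcl2l2* was at -0.072 with all 23 libraries, -0.060 without culture 2, -0.049 without culture 3, -0.0035 with limma-voom, and -0.023 with GC trends removed, with or without culture as a block. Leaving out a library gave -0.061 to 0.060 for *Bcl2l2* and -0.042 to 0.13 for *Bcl2l1*. *Bcl2l1* was at -0.014 without CRE1-3 and CRE3-3, -0.027 in 19 libraries, -0.064 without culture 1 and -0.0014 with GC trends removed and culture as a block. *Bak1* was at -0.012 without culture 1 and *Apaf1* at -0.033 without culture 3. The cause was not tested. The interaction of group and culture called 1 gene, 0 with all 23 libraries, 45 without CRE1-3 and CRE3-3, and 36 in 19 libraries (alternatives chosen after seeing the data).

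Numbers do not pair the libraries by their data. Deviations of CRE and RFP libraries of the same culture correlated at 0.03, 0.02 and 0.14, and 1 of 9 CRE libraries correlated best with the RFP library of its own number. With culture as a replicate block 4267 genes and 4 members were called, and with culture and library number as a block 3121 genes and 3 members, where *Bcl2l2* was at -0.054.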
